A study of Mus musculus with 6 samples.

Results

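Accessibility was examined at 10 genes of the YAP and TEAD system: the coactivators Yap1 and Wwtr1 (TAZ), the DNA-binding factors Tead1 and Tead3, the target genes Ccn1, Ccn2, Myof and Crim1, and Amotl2 and Lats2, which are both targets and inhibitors of YAP. The members were all regions of the deposited ATAC-seq table that carry 1 of these gene symbols, 17 regions, and all regions without a gene symbol within 50 kb of the gene's listed start and stop, 88 regions, together 105 of 52957. Of the 17, 8 lay up to 1000 bp from the start site and are called promoter regions here, and 9 lay farther away. Amotl2 and Lats2 had no promoter region by this limit. Of the 88 regions, 45 lay inside a gene's span, 16 upstream and 27 downstream, 7 carried a gene identifier without a symbol, and 27 lay nearer to another named gene, so that their place in the list rests on distance alone.

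ATAC-seq counts DNA fragments cut out of open chromatin by the transposase Tn5. NIH3T3 is an established mouse fibroblast cell line, here in stable lines with an active (3 libraries) or an inactive (3 libraries) T3H48 hammerhead ribozyme (HHR), a self-cleaving RNA, knocked into intron 3 of Actg1, the gamma-actin gene. Both groups thus carry an insertion at this gene and differ, by the labels, in whether the ribozyme can cut the transcript. Whether the 3 libraries of a group are separate cultures or clones is not stated, so p-values cover only library-to-library spread, possibly technical, and ribozyme activity cannot be told apart from the history of each line.

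YAP and TAZ do not bind DNA themselves. They enter the nucleus and act on genes through the TEAD factors, which recognise the sequence GGAATG, and the LATS kinases of the Hippo pathway keep them in the cytoplasm by phosphorylation. In fibroblasts this system responds to cell spreading and to tension in the actin skeleton, and Ccn1 and Ccn2, which encode secreted matricellular proteins, are its classical readouts.

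The libraries summed to 6433944 to 6548535 normalised reads, the authors' read totals per region after division by a library factor. Before that scaling the active libraries held an estimated 3710000 to 6840000 reads in regions and the inactive ones 7330000 to 8960000, so low values of the active group carry more counting error. Of 51253 regions tested genome-wide, 60.1% differed between the groups (limma, adjusted p under 0.05), 30.9% higher and 29.2% lower in the active group. Of 10 fibroblast markers, 8 had a promoter region among those analysed (2 called higher, 5 lower), Thy1 and Pdgfra did not, and the summed level of these regions ran from 2225 to 2392 with the active and from 2776 to 2850 with the inactive ribozyme. Of 5 epithelial markers only Krt8 had one (134 to 171 against 78 to 89, while a Krt8 region 2688 bp from the start site was lower, at 44 to 57 against 80 to 94), of 3 endothelial markers only Kdr (74 to 82 against 5 to 9), and of 3 blood markers only Cd68 (51 to 69 against 51 to 57). A region of the epithelial marker Cldn4, 3998 bp from the start site, was higher, at 44 to 53 against 15 to 21. These levels move with the groups, other than that of Cd68, and their part in the results below was not tested. In a bulk profile, fewer cells with an open region and less opening in each cell cannot be told apart.

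The promoters of Yap1, Wwtr1, Tead1, Ccn1, Myof and Crim1 were less accessible in the active group, by 1.12-fold at Crim1 to 1.63-fold at Yap1, and those of Tead3 and Ccn2 did not pass the test. Of the 8 promoter regions 6 (75.0%) were called lower and 0 higher (limma, adjusted p under 0.05), with the same 6 and 0 at an unadjusted p under 0.05. Over all 9650 promoter regions with a symbol, 37.6% were called lower and 21.0% higher, 58.6% in all. After centring each library on the median of the 10 Mb window around a region, 2 of the 8 were lower and 1 higher, beside 36.6% of all promoters in either direction. The median log2 change was -0.22 for the 8 promoters and -0.11 for all promoters tested. All 105 regions passed the filter on low values, a mean of at least 10.

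Yap1, the first of the coactivators, had the largest fall of the 8. Its promoter region on chromosome 9 (8003381 to 8005048, mm39) held 212, 231 and 225 normalised reads in the active and 360, 352 and 378 in the inactive libraries. All active libraries lay far below all inactive ones. The level fell from 363 ± 13.3 to 223 ± 9.71 (SD, n = 3 each), a log2 change of -0.70 ± 0.07 (SE; limma-adjusted p = 9.87e-11). Its surroundings were lower as well, since the median log2 change over the 59 regions tested in the first 10 Mb of the chromosome was -0.61. With values centred on that window, the Yap1 promoter changed by -0.12 and no longer passed (limma-adjusted p = 0.18). Centred on the regions within 2 Mb, whose median was -0.56, it stayed lower (-0.19, limma-adjusted p = 0.0289).

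Wwtr1, the gene of TAZ, the second coactivator, fell less at its promoter. This region on chromosome 3 (57482402 to 57484150) stood at 527, 542 and 498 in the active and 600, 578 and 620 in the inactive libraries, with no overlap between the groups. The log2 change was -0.20 ± 0.06 (SE; limma-adjusted p = 0.00286) beside a window median of -0.14, and the centred value, -0.08, did not pass (limma-adjusted p = 0.239). It did not hold either in a plain limma fit, without trend and robust settings (adjusted p = 0.0911), or with libraries thinned to equal depth (-0.14, limma-adjusted p = 0.0843).

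The TEAD genes encode the DNA-binding partners. The Tead1 promoter on chromosome 7 (112278046 to 112279309) held 275, 290 and 270 in the active and 336, 305 and 352 in the inactive libraries, which did not overlap. It fell by 0.25 on the log2 scale (SE 0.07, limma-adjusted p = 0.00397), in a window with a median of -0.07, and stayed lower after centring on that window (-0.20, limma-adjusted p = 0.0233). Centred on the regions within 2 Mb the call was lost (-0.11, limma-adjusted p = 0.211), as it was in the plain limma fit (limma-adjusted p = 0.0643). The Tead3 promoter on chromosome 17 (28568627 to 28570346) stood at 469, 514 and 443 against 478, 518 and 527, values that overlap (log2 change -0.10 ± 0.06 SE, limma-adjusted p = 0.185). Its window had a median of -0.24, so that its centred value was above 0 (0.13, limma-adjusted p = 0.0599), and centred within 2 Mb it was called higher (0.15, limma-adjusted p = 0.0372). Without active replicate 2 it was called lower (-0.15, limma-adjusted p = 0.0352).

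**Figure D1:**
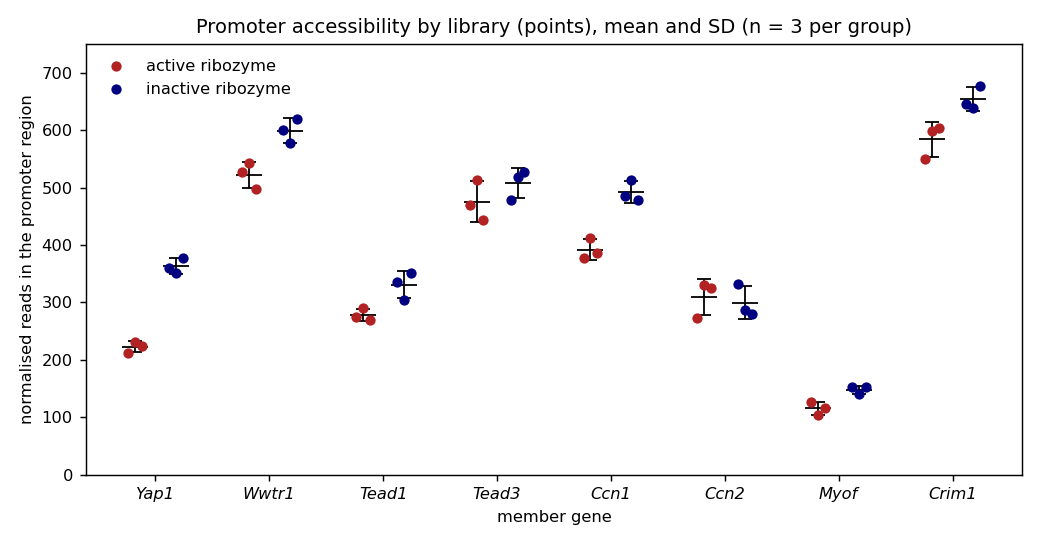
Normalised reads in the promoter region of 8 member genes (vertical axis) for the 3 active and 3 inactive libraries (points), with the mean and SD of each group. The groups separate at Yap1, Wwtr1, Tead1, Ccn1, Myof and Crim1, the largest gap being at Yap1 (223 against 363), and overlap at Tead3 and Ccn2.

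Among the targets, the promoter of Ccn1 kept its fall beside its surroundings. This region on chromosome 3 (145355121 to 145356030) held 378, 412 and 386 in the active and 485, 514 and 478 in the inactive libraries, with no overlap. It fell from 492 ± 19.1 to 392 ± 17.8 (SD, n = 3 each; log2 change -0.33 ± 0.06 SE, limma-adjusted p = 2.10e-05), against a window median of -0.10. The centred values were -0.27 (limma-adjusted p = 5.11e-04) in the 10 Mb window and -0.33 within 2 Mb. The call held under all 17 alternatives. A second Ccn1 region, 1.84 kb upstream of the start site, held 110, 106 and 81 against 138, 119 and 144, all active libraries being lower (log2 change -0.44, limma-adjusted p = 0.0019), while a further one, 3.40 kb upstream, stood at 333 ± 13.3 against 358 ± 9.71 and did not pass (limma-adjusted p = 0.185).

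Ccn2, the other classical target, did not pass at its promoter. The region on chromosome 10 (24471163 to 24472062) held 273, 330 and 325 in the active and 332, 287 and 280 in the inactive libraries. The groups overlap, and the log2 change was 0.04 ± 0.08 (SE; limma-adjusted p = 0.644). Because the 20 to 30 Mb window around it had a median of -0.15, the centred value was called higher (0.23, limma-adjusted p = 0.0163). Centred on the regions within 2 Mb, whose median was -0.01, it was not (-0.02, limma-adjusted p = 0.882). Whether the changes at the Ccn1 and Ccn2 promoters differ from each other was not tested.

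Myof, the gene of the membrane repair protein myoferlin, fell at its promoter on chromosome 19 (38031738 to 38032364), with 127, 104 and 117 in the active and 152, 140 and 152 in the inactive libraries (log2 change -0.35 ± 0.11 SE, limma-adjusted p = 0.0045). The active libraries were all lower. The window had a median of -0.33, and the centred value was -0.08 (limma-adjusted p = 0.575). Crim1, which encodes a transmembrane protein that binds BMP ligands, stood at 549, 599 and 604 against 646, 638 and 677 at its promoter on chromosome 17 (78507207 to 78508995), again without overlap. Its log2 change of -0.16 ± 0.06 (SE; limma-adjusted p = 0.0107) equalled the window median of -0.16, and centring left -0.02 (limma-adjusted p = 0.785). The Crim1 call was also lost without active replicate 1 (-0.12) or inactive replicate 3 (-0.14), in the plain limma fit (limma-adjusted p = 0.155) and with libraries thinned (-0.11).

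The sequences before the start sites of the genes whose promoter fell show where a TEAD motif lies. RefSeq promoter windows of 300 bases (GRCm38.p6) were matched by symbol for 8 of the 10 members, all but Tead1 and Ccn2. The motif GGAATG was searched on both strands, on which it reads GGAATG or CATTCC. Below are the 250 bases before the start site, 5′ to 3′ on the gene's strand, with the match in capitals.
Yap1: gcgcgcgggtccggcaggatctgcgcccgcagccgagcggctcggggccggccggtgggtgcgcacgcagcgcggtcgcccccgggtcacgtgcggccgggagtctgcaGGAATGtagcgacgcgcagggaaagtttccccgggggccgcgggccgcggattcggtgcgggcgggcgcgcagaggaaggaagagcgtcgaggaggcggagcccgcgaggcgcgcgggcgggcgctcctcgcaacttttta
Wwtr1: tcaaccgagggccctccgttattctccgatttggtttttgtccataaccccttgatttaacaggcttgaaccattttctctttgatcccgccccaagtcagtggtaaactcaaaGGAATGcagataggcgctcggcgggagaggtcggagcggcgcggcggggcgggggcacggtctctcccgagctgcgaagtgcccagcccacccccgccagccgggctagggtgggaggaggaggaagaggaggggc
Ccn1: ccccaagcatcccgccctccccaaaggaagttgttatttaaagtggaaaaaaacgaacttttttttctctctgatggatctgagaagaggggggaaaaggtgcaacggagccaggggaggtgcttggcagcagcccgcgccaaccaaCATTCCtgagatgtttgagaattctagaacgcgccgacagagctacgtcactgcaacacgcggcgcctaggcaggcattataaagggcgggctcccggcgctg
Crim1: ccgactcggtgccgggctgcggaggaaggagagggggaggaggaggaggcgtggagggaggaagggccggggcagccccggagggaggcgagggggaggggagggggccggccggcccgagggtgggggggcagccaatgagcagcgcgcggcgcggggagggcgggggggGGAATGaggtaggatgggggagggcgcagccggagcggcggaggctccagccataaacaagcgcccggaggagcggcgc
Myof: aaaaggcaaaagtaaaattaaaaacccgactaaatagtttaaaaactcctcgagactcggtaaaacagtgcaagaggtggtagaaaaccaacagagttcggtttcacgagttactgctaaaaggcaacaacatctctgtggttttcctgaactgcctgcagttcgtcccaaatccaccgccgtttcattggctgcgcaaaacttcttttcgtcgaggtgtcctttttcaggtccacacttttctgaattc
These stretches are chr9:8004597-8004846, chr3:57575911-57576160, chr3:145649986-145650235 and chr19:38043578-38043827 on the minus strand for Yap1, Wwtr1, Ccn1 and Myof, and chr17:78199998-78200247 on the plus strand for Crim1. Wwtr1 has 2 overlapping windows, of which 1 is shown. The build differs from that of the ATAC table (mm39), so the windows were not laid over its regions.

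In these stretches the match began 141 bases before the start site at Yap1, 136 at Wwtr1, 103 at Ccn1 and 79 at Crim1, and Myof had none. Of the members whose sequence is not shown, the Amotl2 window held a match 65 bases before the start site, 1 of 2 Lats2 windows a match at base 5 after it, and 2 of 3 Tead3 windows a total of 4 matches. Thus 7 of the 8 matched genes held the motif in at least 1 window, whereas 16.6% of 27025 genes and 14.7% of 32851 windows did. The motif of AP-1, TGANTCA (N being any base, both strands), was in 0 of 12 member windows and in 7.81% of all windows. The members were chosen in part as known TEAD targets, and all windows were not matched for base composition, so the motif count is a description. The motif stood in promoters that fell (Yap1, Wwtr1, Ccn1, Crim1) and in one that did not pass (Tead3).

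Away from the promoters but annotated to the genes, 5 of 9 regions were called lower and 0 higher (limma, threshold 0.05, with the same counts at an unadjusted p under 0.05). Of all 4167 such regions with a symbol, 32.5% were lower and 25.8% higher, 58.3% in all. After centring 3 of the 9 were lower, beside 48.6% of all such regions in either direction. Besides the Ccn1 region above, these were a Wwtr1 region 1.62 kb inside the gene (32, 21 and 33 against 45, 46 and 61, log2 change -0.81, limma-adjusted p = 6.28e-04), both Myof regions and a Lats2 region. The Myof region 1.04 kb inside the gene held 72, 80 and 70 against 100, 120 and 106. It and the one at 5.19 kb had log2 changes of -0.55 and -0.45, and both lost their call after centring (-0.27 and -0.17).

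Amotl2 and Lats2 are induced by YAP and restrain it, Amotl2 as an angiomotin-like scaffold that binds YAP and Lats2 as its kinase. The annotated Amotl2 region, centred 1.25 kb inside the gene on chromosome 9 (102594438 to 102595799), held 628, 668 and 636 in the active and 654, 632 and 653 in the inactive libraries. The groups overlap, and the log2 change was -0.01 ± 0.05 (SE; limma-adjusted p = 0.936). The Lats2 region with the highest value, 2.28 kb upstream on chromosome 14 (57997723 to 57998528), held 374, 382 and 370 against 372, 343 and 356 and did not pass either (0.07 ± 0.07 SE, limma-adjusted p = 0.351). A small Lats2 region beside it, at 57997025 to 57997285, held 8, 9 and 13 against 22, 29 and 20, a fall of 2.37-fold (log2 change -1.17 ± 0.30 SE, limma-adjusted p = 0.00102). It stayed lower after centring (-1.31), in a window whose median was 0.11.

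Regions without a symbol near the genes changed in both directions. Of 88, 32 (36.4%) were lower and 12 (13.6%) higher in the active group, where 26.7% and 34.0% of all 37436 regions without a symbol were (60.6% in either direction). Their median log2 change was -0.14, against 0.04 over all such regions, and their range ran from -1.95 to 1.86. Called changes of at least 1 on the fitted log2 scale, which is 2-fold on value + 1, numbered 7 lower and 4 higher, together 12.5% of the 88, where 24.7% of all regions without a symbol had one. After centring on the 10 Mb window, all 12 higher regions kept their call, 20 of the 32 lower ones did, and 4 more were higher. Of all such regions 55.0% were called in either direction after centring.

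The Ccn1 locus held large changes in opposite directions within 50 kb. A region 8.85 kb from the start site, beyond the end of the gene (145346529 to 145347239), rose from 32, 17 and 26 in the inactive to 91, 69 and 72 in the active libraries. All active libraries lay above all inactive ones, 3.09-fold in the mean (log2 change 1.62 ± 0.20 SE, limma-adjusted p = 2.38e-09). Farther out on the same side, at 35.2 kb (145320129 to 145320898), a region fell from 113, 113 and 112 to 36, 27 and 36, 3.41-fold (log2 change -1.75 ± 0.15 SE, limma-adjusted p = 6.80e-13). It lies nearer to Znhit6 than to Ccn1. Upstream of Ccn1, a low region 16.5 kb away rose from 9.67 ± 2.08 to 24.3 ± 8.33, and one 43.3 kb away fell from 89.67 ± 6.429 to 52.3 ± 5.03. The nearby region with the highest value, 35.2 kb upstream, held 285, 337 and 295 against 302, 305 and 305 and did not pass (limma-adjusted p = 0.966). The 4 calls in this paragraph held under every alternative run for them.

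Ccn2 had 3 nearby regions, all past the threshold, as were 60.6% of all regions without a symbol. The region 5.98 kb upstream (24464935 to 24465791), the nearest to the promoter, held 111, 110 and 135 in the active and 176, 188 and 171 in the inactive libraries, a fall of 1.503-fold without overlap (log2 change -0.59 ± 0.10 SE, limma-adjusted p = 5.17e-06) that stayed after centring (-0.41). A region 41.1 kb upstream rose from 63.3 ± 2.31 to 84.7 ± 15.1 (log2 change 0.40, limma-adjusted p = 0.0152), a call lost with quantile normalization and without active replicate 3. One 29.8 kb from the start site, beyond the gene and nearer to Enpp1, held 17, 11 and 15 against 26, 22 and 21 (log2 change -0.66, limma-adjusted p = 0.0368). The latter call was lost without active replicate 2 (-0.49), inactive replicate 1 (-0.57), inactive replicate 2 (-0.69) or inactive replicate 3 (-0.72), with libraries thinned (-0.50) and after centring (-0.48).

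Along Wwtr1, whose span is 120262 bp, 6 of 15 nearby regions fell and 2 rose. Of all regions without a symbol 26.7% were lower and 34.0% higher. After centring on the 10 Mb window 6 of the 15 were lower and 4 higher, where 55.0% of all such regions were called in either direction. Among these 4 was a region at 20.1 kb that was not called as deposited (0.27, limma-adjusted p = 0.109, and centred 0.39, limma-adjusted p = 0.0242). Inside the gene, the region 10.9 kb from the start site fell 2.63-fold (13, 19 and 19 against 45, 49 and 40), the one at 95.02 kb 2.48-fold (17, 19 and 20 against 40, 46 and 53) and the one at 105 kb 1.51-fold (101, 111 and 82 against 152, 150 and 142). In all of them every active library lay below every inactive one. The largest fall by log2 change, -1.86 ± 0.47 (SE; limma-adjusted p = 8.44e-04), was in a region at 44.9 kb with few reads (1, 12 and 4 against 21, 18 and 14). The authors annotate this region to a gene without a symbol, 2804 bp from that gene's start site. Its change went to -1.19 without active replicate 1, less than the fall at 10.9 kb over all libraries (-1.36), and to -2.54 without active replicate 2. The rises were at 29.0 kb, from 15.7 ± 3.06 to 30.7 ± 4.16, and at 140 kb, from 16.7 ± 2.89 to 40.7 ± 6.51. The latter region lies beyond the end of the gene and overlaps the listed span of Tm4sf4. These 6 calls held after centring. The nearby region with the highest value, at 74.05 kb, held 239, 292 and 261 against 227, 245 and 248 and did not pass as deposited (0.13, limma-adjusted p = 0.158), but was called higher after centring (0.25, limma-adjusted p = 0.00962), with quantile normalization (0.19) and without active replicate 1 (0.20).

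Of 12 regions near or inside Myof, 7 fell and 3 rose. Of all regions without a symbol 26.7% were lower and 34.0% higher, and of the other tested regions in the Myof window 48.6% and 17.3%. After centring on the 10 Mb window 4 of the 12 were lower and 4 higher. At 18.1 kb the level was 367, 382 and 370 in the active and 447, 534 and 473 in the inactive libraries (log2 change -0.37 ± 0.07 SE, limma-adjusted p = 6.38e-06). At 27.9 kb it was 347, 369 and 341 against 469, 520 and 469 (-0.46 ± 0.07 SE, limma-adjusted p = 8.57e-08). The groups do not overlap at either. At 38.9 kb, in contrast, the level was 441, 408 and 387 against 372, 366 and 346 (0.19 ± 0.07 SE, limma-adjusted p = 0.0152), and at 83.8 kb 269, 247 and 276 against 209, 236 and 225 (0.24 ± 0.08 SE, limma-adjusted p = 0.00985). The call at 38.9 kb was lost without active replicate 1 (0.14) or inactive replicate 3 (0.16) and that at 83.8 kb without inactive replicate 1 (0.19), and both in the plain limma fit and with libraries thinned (0.11 and 0.21). With the window median of -0.33 taken out, these values became -0.10 at 18.1 kb, which lost its call, -0.19 at 27.9 kb, 0.46 at 38.9 kb and 0.52 at 83.8 kb. The low regions at 58.0 kb (5, 7 and 8 against 21, 29 and 25) and 147 kb, beyond the gene (18, 18 and 24 against 2, 8 and 6), changed by 3.75-fold, the first lower and the second higher, and both kept their calls after centring. A region at 87.6 kb (205 ± 17.5 against 235 ± 11.9) was called lower as deposited (-0.20), turned to 0.07 after centring, and lost its call with quantile normalization, in the plain limma fit, and without active replicate 1 (-0.15) or 3 (-0.19) or any of the inactive replicates (-0.16 to -0.22).

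**Figure D2:**
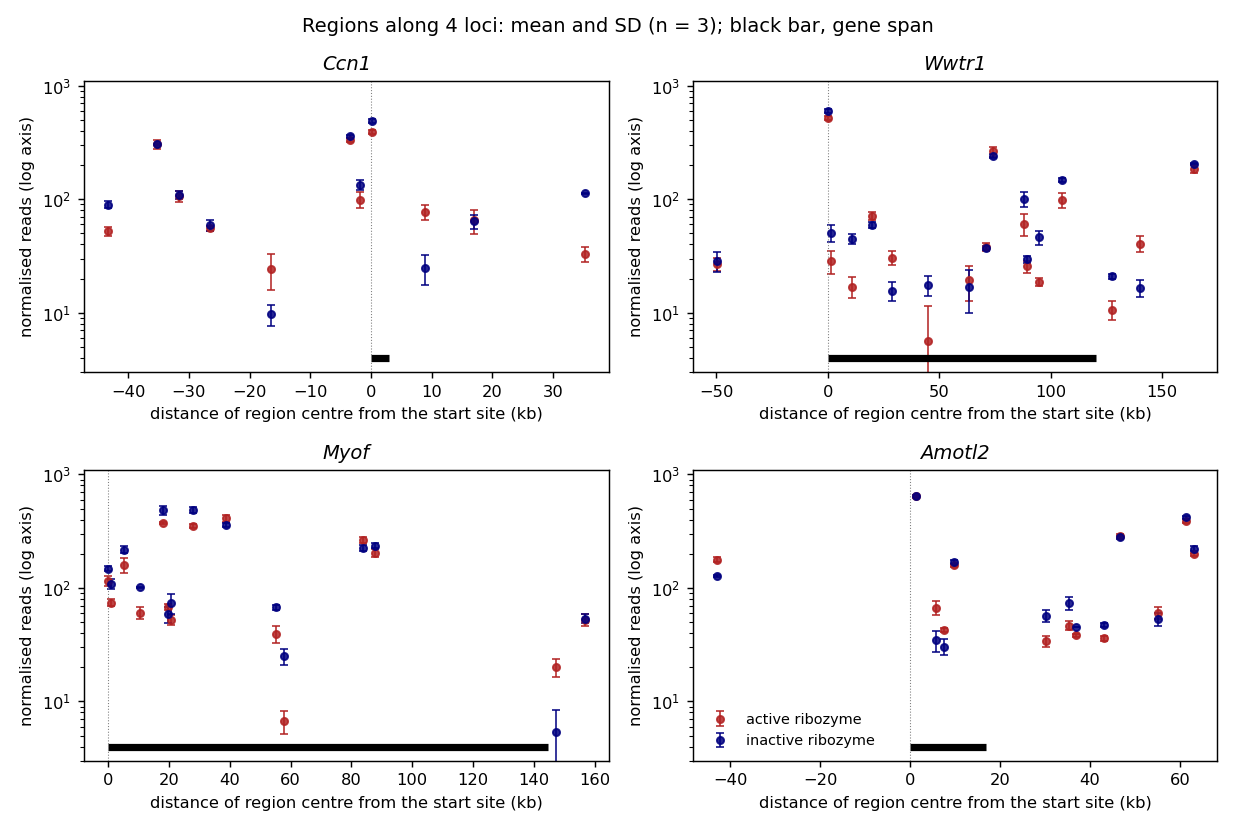
Mean and SD (n = 3 per group) of normalised reads (log axis) in each member region along 4 loci, by the distance of the region's centre from the start site in kb, with the gene's span as a black bar. At Ccn1 the region at 8.85 kb is higher and that at 35.2 kb lower in the active group, at Wwtr1 low regions inside the gene lie apart in both directions, at Myof regions at 18.1 and 27.9 kb are lower and those at 38.9 and 83.8 kb higher, and at Amotl2 the strongest region coincides.

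Around Amotl2, 3 of 12 nearby regions rose and 2 fell, where 34.0% of all regions without a symbol were higher and 26.7% lower. The rises were at 5.81 kb inside the gene (57, 69 and 75 against 30, 43 and 31, log2 change 0.94 ± 0.18 SE, limma-adjusted p = 1.61e-05), at 7.58 kb (42, 42 and 45 against 36, 27 and 28, limma-adjusted p = 0.0252) and 43.1 kb upstream, nearer to Anapc13 (173, 187 and 173 against 127, 131 and 126, 1.39-fold). In all of these the active libraries lay above the inactive ones. The call at 7.58 kb was lost with quantile normalization and without active replicate 3 and without inactive replicate 2 or 3. The falls were 30.2 and 35.2 kb from the start site, beyond the gene and overlapping the listed span of Gm5627 (34 ± 4 against 57 ± 6.93, and 46.7 ± 4.04 against 73.3 ± 9.45). The region with the highest value near Amotl2, 61.2 kb from the start site, held 371, 403 and 399 against 427, 405 and 427 and did not pass. At Lats2, 0 of 5 nearby regions passed (limma, with 0 also at an unadjusted p under 0.05), with means from 25.2 to 62 normalised reads. The one 78.2 kb from the start site held 29, 19 and 19 against 26, 29 and 29, and the one 33.1 kb upstream 51, 78 and 64 against 60, 66 and 53, with overlap at both.

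Crim1 had 5 falls and 0 rises among 13 nearby regions (limma; 7 and 0 at an unadjusted p under 0.05), where 26.7% of all regions without a symbol were lower and 34.0% higher. After centring on the 10 Mb window 2 were lower and 1 higher, the latter at 139 kb inside the gene (0.70, limma-adjusted p = 0.0377; 0.55 as deposited, limma-adjusted p = 0.0889). The largest fall was at 78717346 to 78717707, 33.3 kb beyond Crim1 and overlapping the listed span of Fez2. The authors annotate this region to a gene without a symbol, 1282 bp from that gene's start site. The region held 15, 21 and 23 in the active and 86, 72 and 75 in the inactive libraries. It fell 3.95-fold (log2 change -1.95 ± 0.19 SE, limma-adjusted p = 1.99e-11) and stayed so after centring (-1.80). Inside Crim1, 18.3 kb from the start site, a region fell from 198 ± 16.9 to 133 ± 17.8 (log2 change -0.58, limma-adjusted p = 4.91e-06, centred -0.44). The other 3 falls, 15.9 to 25 kb beyond Crim1 and overlapping the listed span of Fez2, had log2 changes of -0.24 to -0.35. They lost their calls after both centrings and in the plain limma fit. The one with the highest value held 343, 329 and 312 against 411, 380 and 375. That at 23.5 kb beyond the gene also lost it without active replicate 3 (-0.26) and without inactive replicate 1 (-0.28) or 2 (-0.29), and that at 15.9 kb with libraries thinned (-0.28).

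Near Tead1, Tead3 and Yap1, 3, 3 and 2 regions were called lower and 0, 1 and 0 higher, where 26.7% of all regions without a symbol were lower and 34.0% higher. After centring on the 10 Mb window, 2, 1 and 0 were lower and 0, 1 and 0 higher. Along Tead1, which spans 227490 bp, 3 of 13 nearby regions fell and 0 rose (limma; the same counts at an unadjusted p under 0.05), the largest at 190 kb from the start site (13, 21 and 16 against 24, 35 and 38, log2 change -0.92 ± 0.25 SE, limma-adjusted p = 0.00198). This call held under every alternative run for it. The falls at 135 kb (-0.43) and 187 kb (-0.56) did not. Both lost the call thinned, centred within 2 Mb and without inactive replicate 1 or 2. The fall at 135 kb also lost it in the plain limma fit and without active replicate 2. That at 187 kb also lost it without active replicate 1 or inactive replicate 3, with the replicate block and centred on the 10 Mb window. The region with the highest value, at 41.15 kb, stood at 173, 163 and 185 against 172, 169 and 159 and did not pass. Inside Tead3, at 9.79 kb (28559405 to 28560602), lay its nearby region with the highest value, with 978, 951 and 1054 in the active and 866, 991 and 887 in the inactive libraries. The groups overlap there. It was called higher as deposited (0.12 ± 0.05 SE, limma-adjusted p = 0.0351), a call lost without active replicate 3 (0.08) and without inactive replicate 1 (0.08) or 3 (0.10) and in the plain limma fit, and stood at 0.35 after centring (limma-adjusted p = 1.40e-07). Upstream of Tead3, a region 43.5 kb away and nearer to Fkbp5 fell 2.25-fold (44, 46 and 51 against 91, 126 and 100, limma-adjusted p = 1.03e-08, centred -0.91). The falls at 20.6 kb (20.3 ± 4.04 against 34 ± 8.19) and 23.2 kb upstream (25.7 ± 6.11 against 37.3 ± 1.53), both nearer to Tulp1, lost their calls after both centrings and without inactive replicate 3, the latter also thinned and without active replicate 2 or inactive replicate 1 or 2. Near Yap1, 2 of 3 regions were called lower, at 38.8 kb inside the gene (11, 7 and 12 against 27, 22 and 12) and 76.1 kb from the start site (34, 57 and 52 against 58, 70 and 68). The authors annotate the region at 38.8 kb to a gene without a symbol, 22 bp from that gene's start site. Neither call held after centring (-0.33 and 0.11) or in the plain limma fit. The first was lost without active replicate 2 (-0.70) and without inactive replicate 1 (-0.68) or 2 (-0.83), the second without active replicate 1 (-0.25) and without inactive replicate 2 (-0.42) or 3 (-0.44).

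**Figure D3:**
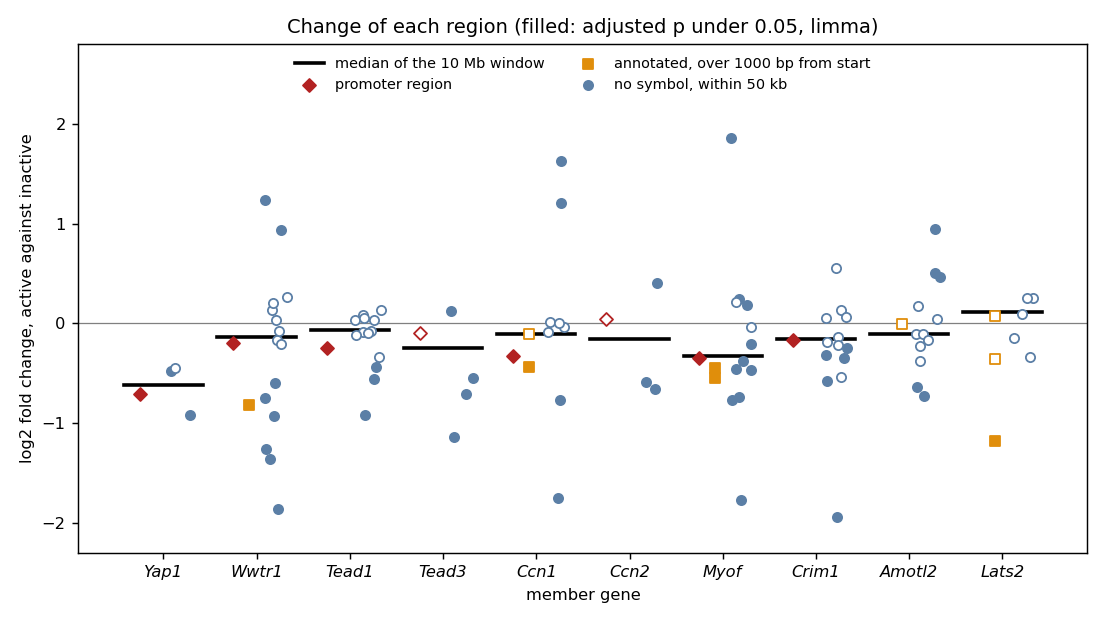
Log2 fold change, active against inactive, of each of the 105 regions (points, by region class) for the 10 genes, filled where the adjusted p of limma was under 0.05, with the median of the gene's 10 Mb window as a black line. The promoters of Yap1, Wwtr1, Myof and Crim1 lie close to the line, those of Ccn1 and Tead1 below it and those of Ccn2 and Tead3 above it. Nearby regions reach from -1.95 at Crim1 to 1.86 at Myof.

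Over all 105 regions, 43 (41.0%) were lower and 12 (11.4%) higher in the active group, 52.4% in all. Of all tested regions, 29.2% were lower and 30.9% higher, 60.1% in all. In 60 of the 105 the groups did not overlap, 57.1%, where in 62.3% of all tested regions they did not. The windows of 9 of the 10 genes had a median below 0, from -0.07 around Tead1 to -0.61 around Yap1, and that of Lats2 a median of 0.11. After centring on these windows 25 regions were lower and 17 higher, against 24.3% and 26.7% of all regions (51.0% in either direction). All 12 higher calls and 25 of the 43 lower calls held, and 5 regions were newly higher. The median log2 change of the 105 went from -0.17 to -0.05. Values are per region, not divided by its length.

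Summed per gene, the Yap1 locus had the lowest ratio of active to inactive. Its 4 regions held 264, 304 and 298 normalised reads in the active and 456, 457 and 469 in the inactive libraries, a log2 ratio of -0.68. The exact two-sided permutation test gave p = 0.1, the smallest that 3 against 3 can give (0.167 after Benjamini-Hochberg adjustment over the 10 loci). The sums at Crim1 (-0.26), Myof (-0.23), Wwtr1 (-0.20), Ccn1 (-0.19) and Tead1 (-0.11) also lay lower in every active library, with the same exact p of 0.1. Those at Ccn2 (-0.10, exact p = 0.4), Tead3 (-0.03, exact p = 0.7), Amotl2 (-0.02, exact p = 0.4) and Lats2 (0.02, exact p = 0.8) overlapped between the groups. The Crim1 sum is not of Crim1 alone, since all its regions beyond the gene overlap the listed span of Fez2. The Crim1 promoter alone gave -0.16 as deposited and -0.02 centred on the window. The sums of Amotl2 and Tead3 also hold regions nearer to other named genes (Gm5627 or Anapc13, and Tulp1 or Fkbp5). So do those of Wwtr1, Ccn1, Ccn2 and Lats2. The annotated Amotl2 region alone gave -0.01 as deposited and 0.09 centred, and the Tead3 promoter alone -0.10 and 0.13. Centred on the windows, the log2 ratio was -0.09 at Yap1, where the groups overlapped (exact p = 0.2), and stayed below 0 at Ccn1 (-0.13), Crim1 (-0.12), Wwtr1 (-0.08) and Tead1 (-0.06), each with an exact p of 0.1. It changed sign at Tead3 (0.20), Amotl2 (0.08) and Lats2 (-0.11), also with an exact p of 0.1, and at Myof (0.04, exact p = 0.2) and Ccn2 (0.08, exact p = 0.5).

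**Figure D4:**
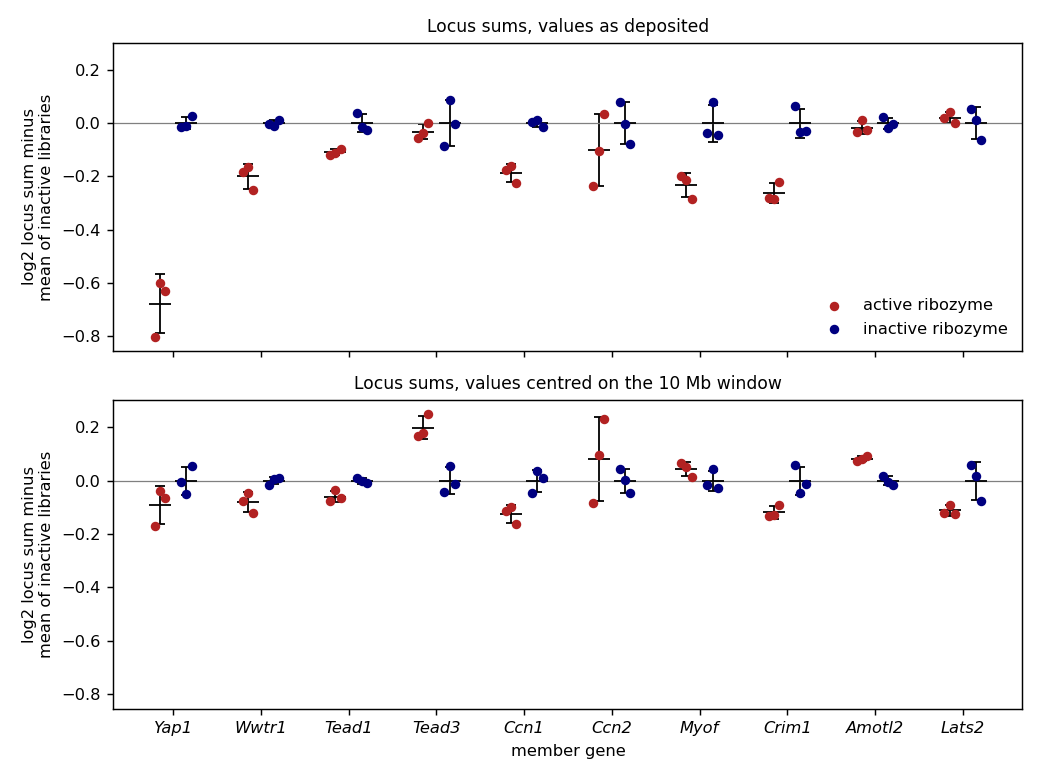
Log2 of the summed normalised reads of each gene's regions in every library (points), relative to the mean of the inactive libraries, with the mean and SD of each group (n = 3), as deposited (top) and centred on the 10 Mb window (bottom). The active Yap1 sums lie far below the inactive ones as deposited and overlap with them after centring.

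Other genes of the pathway, from lists of 46 genes of which 39 had a promoter region, fell and rose. Of their 40 promoter regions 13 were lower and 8 higher, 52.5% in all, a share near that of all promoters (58.6% in either direction). Among 14 promoter regions of Hippo kinases and upstream parts, 6 fell and 5 rose. The largest falls were at Taok1, a kinase that activates the Hippo kinases (334 ± 11.1 to 254 ± 15.4, log2 change -0.39), and Nf2, the gene of the tumour suppressor merlin (441 ± 50.3 to 347 ± 16.4, -0.34), and the largest rises at Taok3 (407 ± 22.6 to 566 ± 28.6, 0.48) and Sav1, the scaffold of the Hippo kinases (237 ± 17.5 to 321 ± 30.6, 0.43). None of these 4 passed after centring, with centred values of -0.14, -0.04, 0.14 and -0.03. Of the 14 promoter regions, 4 were lower and 1, that of Wwc1, higher (0.38) after centring. Those of Fat1 (-0.21), Fat4 (-0.27) and Taok2 (-0.25) stayed lower. That of Mob1b turned from higher (0.18) to lower (-0.77, limma-adjusted p = 1.30e-12), in a window with a median of 0.89. These 5 were chosen after their values were seen.

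Of 8 promoter regions of cofactors and regulators of YAP, TAZ and TEAD, 3 fell and 0 rose (limma; 4 and 0 at an unadjusted p under 0.05), where 37.6% of all promoters were lower and 21.0% higher. A promoter region of Vgll4, a competitor of YAP for TEAD, fell from 107 ± 3.21 to 62.3 ± 7.77 (log2 change -0.77, limma-adjusted p = 3.75e-06), in a window with a median of 0.31 (centred -1.09). A Vgll4 region beside it, 1090 bp from the start site, rose from 201 ± 16.2 to 250 ± 21.7 (0.31, limma-adjusted p = 0.00212; centred -0.01). That of Tead2, a further TEAD factor, fell from 78 ± 2.65 to 53 ± 10.8 (log2 change -0.57, limma-adjusted p = 0.00157, centred -0.47). Of 18 promoter regions of other YAP target genes, 4 fell and 3 rose. After centring 9 of them were lower and 1 higher, and their median log2 change went from -0.06 to -0.16. Birc5, the gene of survivin, fell from 365 ± 19.0 to 267 ± 3.79 (log2 change -0.45, centred -0.19) and Ankrd1, a classical target like Ccn1 and Ccn2, from 122 ± 9.02 to 96.7 ± 9.07 (-0.34, centred -0.06). Fjx1 rose from 64.3 ± 12.3 to 96.3 ± 2.08 (0.59, centred 0.63). After centring, 15 of the 40 promoter regions were lower and 2 higher, 42.5% in all, where 36.6% of all promoter regions were called in either direction. That share was not split by direction, so the split into 15 and 2 has no share of all promoters to be set against.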

How the data were processed

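The 6 ATAC-seq libraries share 1 table of regions. Its deposited values are a score: reads that the authors divided by a factor for each library and rounded to whole numbers. This reading rests on the nearly equal totals and, in active replicates 1 and 2 only, on skipped whole numbers. DESeq2 1.36.0, featureCounts, Picard 3.1.1, Trimmomatic 0.39, STAR 2.7.11a and build mm39 are named in the submitters' processing notes, without their roles. For the peak caller, region filters and any Tn5 read shift, nothing is given in the sources used here. Reads were not recovered exactly, so no count model was applied. Distances to start sites, in bp, are the authors' annotation.

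The fit used limma 3.58.1 (R 4.3.3) on log2(value + 1) (trend and robust settings, no covariate) over all 51253 regions with a mean of at least 10, with Benjamini-Hochberg adjustment over all of them, calling those under 0.05. The log2 changes printed are on this scale, which understates changes of low regions, and single folds are ratios of group means. The local shift is the median log2 change of all regions tested in the fixed 10 Mb window. For centred values each library's median deviation in that window, or among regions within 2 Mb, was subtracted before the same fit, and the error of that median is not included. Locus sums were compared by exact permutation (scipy 1.17.1, Python 3.11.15). The fit was run on simulated data with few changed regions and no shifts along chromosomes. These data hold many changed regions and such shifts, so that run does not vouch for the calls here. Regions printed by library were all promoters, the annotated region away from them with the largest change and, near each gene, the region with the largest change and that with the highest mean. Other regions printed, among them the Lats2 region with the highest value, were named after their values were seen; those near genes were mostly called regions with at least a 2-fold change or a mean of at least 100. From each list of other genes, the 2 promoter regions with the largest rise and fall were named, except 1 that is not reported here. Members and lists were chosen with earlier results of these data known. Alternatives were pseudocounts of 0.5 and 5, no filter, a mean of at least 30, quantile normalization, the plain limma fit, array weights, both centrings, a replicate block, leaving out each library, promoter limits of 500 and 2000 bp, distance limits of 20 and 100 kb and, added after seeing the data, libraries thinned to equal depth.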

Additional observations from a re-analysis of the deposited data

How the results depend on the processing

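Of the 55 member regions past the threshold, 30 kept call and direction under every alternative run for them, 35 under all but the centred values, and 16 lost the call without at least 1 library. Pseudocounts, array weights and no filter cost no call, quantile normalization 3, thinning 9 and the plain limma fit 14. Centring on 10 Mb windows left 25 member regions lower and that within 2 Mb 26, against 43. For promoters both centrings gave 2 lower and 1 higher, against 6 and 0, but only the Ccn1 call was the same in both. The 10 Mb centring also called Tead1 lower and Ccn2 higher, and that within 2 Mb Yap1 lower and Tead3 higher. For annotated regions away from promoters the 10 Mb centring gave 3 lower, against 5, and for nearby regions both gave 20, against 32. The plain limma fit gave 3 lower promoters, and 5 instead of 8 higher promoters of other pathway genes, for which centring gave 2 (10 Mb) and 1 (2 Mb). A promoter limit of 2000 bp gave 10 lower of 13 regions, against 6 of 8. The share of all promoters at that limit was not computed. A distance limit of 100 kb gave 19 higher of 127 nearby regions, against 12 of 88, where 34.0% of all regions without a symbol were higher. With the replicate block, higher and lower calls stayed at 12 and 43, of which 1 lost call was at Tead1. Same-numbered libraries did not deviate together (correlations of 0.0014, -0.006 and -0.0162), so the number is not treated as a pairing. Leaving out 1 library gave 34 to 42 lower and 9 to 14 higher member regions.

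Some values changed sign, among them the called falls at Yap1 (76.1 kb, -0.4752 as deposited) and Myof (87.6 kb, -0.2027) and the Myof locus sum (-0.232). The annotated Amotl2 region went to 0.02 with quantile normalization, 0.0934 centred in 10 Mb and -0.0322 to 0.0123 without 1 library. The Ccn1 region 35.2 kb upstream went to -0.0113 with array weights, -0.0033 thinned and -0.068 to 0.0525 without 1 library. The Ccn2 promoter went to -0.0157 within 2 Mb and -0.0045 to 0.1318 without 1 library. The Lats2 region 2.28 kb upstream went to -0.0596 and -0.0949 with the 10 and 2 Mb centrings, that at 78.2 kb to 0.0124 thinned, and that 33.1 kb upstream to -0.0222 (quantile), -0.0407 and -0.0721 (centred) and -0.0558 to 0.2458 without 1 library. With both centrings Myof at 87.6 kb went to 0.0734 and 0.0828, the Tead3 promoter to 0.1349 and 0.1519 (the latter called, limma-adjusted p = 0.0372), and Yap1 at 76.1 kb to 0.1103 and 0.0362. Locus sums that changed sign in the 10 Mb window were Tead3 (0.1992), Ccn2 (0.0808), Amotl2 (0.0823), Myof (0.0441) and Lats2 (-0.1116), and without 1 library Tead3 (-0.0744 to 0.0121) and Lats2 (-0.0117 to 0.0477). The cause was not tested. The smaller depth of the active libraries limits regions with few reads most.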
